A study of Mus musculus with 2 samples.

Results

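The genes described here encode the enzymes, the pump and the carrier with which mast cells and basophils make and store histamine, serotonin and heparin. The set was given as a list of 7 gene symbols, Hdc, Slc18a2, Tph1, Hnmt, Ndst1, Ndst2 and Srgn, and each was found in the deposited count table by its Ensembl identifier. They are 7 of 55487 gene identifiers in the table. Of the 7, 5 reached at least 1 scaled CPM (CPM after TMM correction for library composition) in a library, as did 13183 genes in all. Tph1 and Hnmt did not.

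Both libraries came from lineage-negative bone marrow cells of C57BL/6 mice whose age is not given in the labels. One culture carried the retroviral vector pMYs-IG_3xHA-EVI1-WT, which encodes wild-type EVI1, a zinc finger transcription factor, and the other carried pMYs-IG_3xHA-EVI1+18, which encodes an aberrantly spliced form (EVI1+18). Both forms were overexpressed from the same kind of vector in otherwise wild-type cells, which were sorted for green fluorescence 3 days after infection and kept in methylcellulose medium for about 3 weeks. No culture without an EVI1 vector was analysed here. Each form had 1 library, of 20480447 counts for EVI1-WT and 20981903 counts for EVI1+18, so no difference has a replicate check and no p-value is given. The intervals below are 95% counting intervals and compare these 2 libraries only. They cover the error of counting reads alone. Reads that carry no molecular identifier need not come from separate molecules, so the intervals can understate the error of counting molecules.

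Histamine is made from histidine by a single enzyme, histidine decarboxylase, and serotonin from tryptophan by tryptophan hydroxylase followed by a decarboxylase. A proton-driven transporter loads both amines into granules, where they are held by the strongly negative sugar chains of the proteoglycan serglycin. In connective tissue mast cells those chains are heparin, and their first sulfation step is carried out by N-deacetylase/N-sulfotransferases. Basophils and mucosal mast cells carry mainly chondroitin sulfate on the same core protein.

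The start regions of Hdc and Slc18a2 are shown because these genes of one pathway, the enzyme that makes histamine and the pump that stores it, had the most different and the most alike levels of the 5 expressed members. Both starts of Srgn are shown because it had the highest level of the members and the count per gene does not say which start was used. Each line gives the 250 bases before a RefSeq start site on GRCm38.p6, 5′ to 3′ on the gene's strand, with motif matches in capitals. Both strands were searched for 7 short motifs. Words of GATA factors (AGATAA) and of the first EVI1 zinc finger domain (CAAGATA) can overlap each other. The E-box, CANNTG, is read by helix-loop-helix factors, and its forms CACGTG, known for MITF, and the M-box CATGTG are counted among E-boxes too. The last motifs were the TATAAA box of core promoters and the word GGGCGG of SP and KLF factors.
Hdc, chr2:126618679-126618928, minus strand: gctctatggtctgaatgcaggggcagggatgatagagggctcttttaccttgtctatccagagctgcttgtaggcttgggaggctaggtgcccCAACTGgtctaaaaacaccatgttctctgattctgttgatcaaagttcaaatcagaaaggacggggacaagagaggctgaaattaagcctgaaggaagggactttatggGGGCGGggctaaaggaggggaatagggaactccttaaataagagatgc
Slc18a2, chr19:59260628-59260877, plus strand: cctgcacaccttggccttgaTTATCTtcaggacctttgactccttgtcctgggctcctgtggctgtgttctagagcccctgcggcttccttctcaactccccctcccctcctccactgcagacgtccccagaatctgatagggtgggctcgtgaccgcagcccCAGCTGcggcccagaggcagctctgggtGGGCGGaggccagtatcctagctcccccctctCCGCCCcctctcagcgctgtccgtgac
Srgn, distal start, chr10:62527446-62527695, minus strand: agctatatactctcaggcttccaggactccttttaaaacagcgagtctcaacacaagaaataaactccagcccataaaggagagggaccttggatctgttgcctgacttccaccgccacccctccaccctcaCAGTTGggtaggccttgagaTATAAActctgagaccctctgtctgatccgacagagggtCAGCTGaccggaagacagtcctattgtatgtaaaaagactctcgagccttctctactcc
Srgn, proximal start, chr10:62507758-62508007, minus strand: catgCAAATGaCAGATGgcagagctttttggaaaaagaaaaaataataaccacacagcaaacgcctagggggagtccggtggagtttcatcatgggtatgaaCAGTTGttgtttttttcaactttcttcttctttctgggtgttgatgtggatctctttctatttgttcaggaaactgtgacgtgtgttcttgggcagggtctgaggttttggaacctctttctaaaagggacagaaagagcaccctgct

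The Hdc window held 1 E-box, CAACTG, at 157 to 152 bases before the start, and 1 GGGCGG at 48 to 43 bases. The Slc18a2 window held AGATAA on the opposite strand at 230 to 225 bases before the start, 1 E-box at 87 to 82 bases and GGGCGG in 2 places. The E-box occurs in 66.2% of all 32851 RefSeq windows of this length, GGGCGG in 32.7% and AGATAA in 9.99%. The distal Srgn window held 2 E-boxes and a TATAAA at 98 to 93 bases before the start, a word found in 12.4% of windows. The proximal Srgn window held 3 E-boxes. CAAGATA, present in 2.03% of windows, was in 0 of the 8 windows that the table gives for 6 of the members, as were CACGTG (6.02%) and CATGTG (12.3%). GC content was 48.8% before the Hdc start and 64.0% before the Slc18a2 start.

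Serglycin takes its name from a run of alternating serine and glycine, the sites at which the sugar chains are attached. The run is shown as coding bases 259 to 336 of the 459-base reading frame of transcript Srgn-201 in GENCODE release M21, and the capitals mark 10 consecutive pairs of a serine and a glycine codon, which are all such pairs in the frame.
Srgn, coding strand: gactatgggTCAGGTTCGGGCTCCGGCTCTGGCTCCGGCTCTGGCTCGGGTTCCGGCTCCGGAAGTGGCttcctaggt

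Among the members, the gene for histamine synthesis differed most between the cultures, and the gene for loading amines into granules differed least. Hdc was 16.5-fold lower with EVI1+18, Slc18a2 stood at the same level in both libraries, and Srgn and both Ndst genes were 2-fold to 3-fold lower. Of the 5 members tested, 3 (Hdc, Srgn and Ndst1) were called 2-fold lower, meaning that the whole counting interval lay below a ratio of 1/2, and 0 were called higher. Over all genes tested, 5.10% were called lower and 5.05% higher. The median log2 ratio of the 5 tested members was -1.16, beside 0.01 for all genes tested, and the 5 were not drawn at random.

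**Figure D1:**
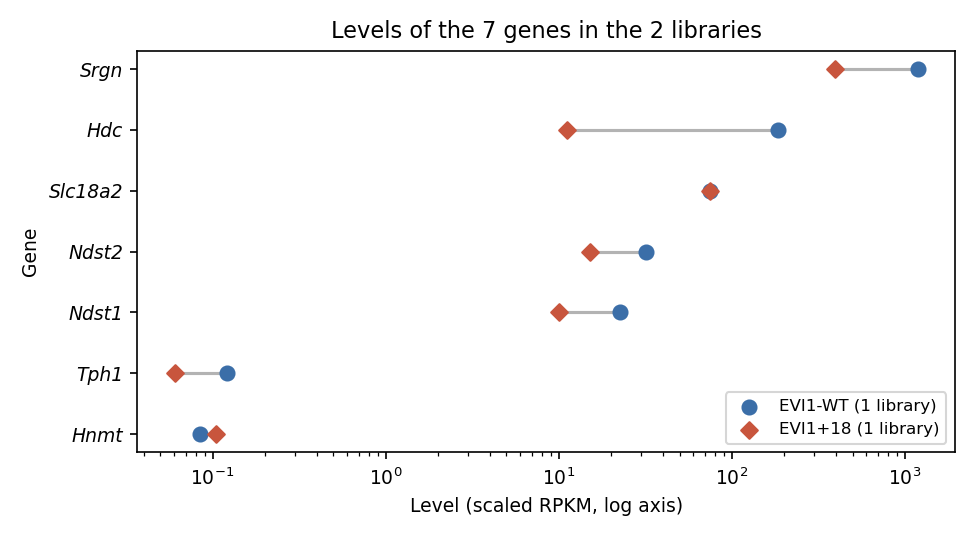
Level of each of the 7 genes in the EVI1-WT library (blue circles) and the EVI1+18 library (red diamonds), as scaled RPKM on a log axis. Each point is 1 library, grey lines join the libraries, and the Slc18a2 circle lies behind its diamond. Hdc has the longest line, from 184 to 11.1, and Tph1 and Hnmt lie below 1 in both libraries.

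Hdc, which encodes histidine decarboxylase (ENSMUSG00000027360; GRCm38 chromosome 2, 126593667 to 126619299, minus strand), had 23596 counts with EVI1-WT and 1528 with EVI1+18. On the scaled CPM scale its level was 1178 with EVI1-WT and 71.2 with EVI1+18. The EVI1-WT culture was therefore the high one, by 16.5-fold with a counting interval of 15.7 to 17.4. The gene took 0.115% of all counts with EVI1-WT and 0.00728% with EVI1+18. By reads per exon length it was gene number 287 of those tested with EVI1-WT and number 4444 with EVI1+18. Of the 97 other genes with at least as many reads as Hdc in the EVI1-WT library, 15 were called lower and 0 higher. Beside them, 5.10% of all genes tested were called lower and 5.05% higher. The 97 were picked by level in the library where Hdc was high, so they are not a neutral background. Among them, 0 had a lower ratio than Hdc, and the nearest was the mast cell carboxypeptidase Cpa3, at 12.3-fold lower. Over all 13183 genes tested, ordered by log2 ratio from the lowest, Hdc was number 53.

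Slc18a2 encodes the vesicular monoamine transporter that pumps histamine and serotonin into granules, and it is also used by platelets and neurons (ENSMUSG00000025094; chromosome 19, 59260896 to 59296012, plus strand). It had 7898 counts with EVI1-WT and 8442 with EVI1+18, or 394 and 393 scaled CPM. The ratio of EVI1+18 over EVI1-WT was 0.998 with an interval of 0.967 to 1.03. Under TMM scaling any difference between the libraries was thus within counting error of equality. With library totals alone the ratio was 1.04 (1.01 to 1.08), an interval just above equality. The quotient of Hdc counts to Slc18a2 counts was 2.99 with EVI1-WT and 0.181 with EVI1+18. That quotient, which does not depend on how the libraries are scaled, was 16.5-fold lower with EVI1+18 (15.5 to 17.5). An antisense gene of 111 shared exon bases, Gm29261, lies over Slc18a2 and had 0 counts with EVI1-WT and 1 with EVI1+18.

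Tph1, the tryptophan hydroxylase of tissues outside the brain (ENSMUSG00000040046; chromosome 7, 46644641 to 46672537), had 15 counts with EVI1-WT and 8 with EVI1+18. Its scaled CPM of 0.749 and 0.373 lay below the filter in both libraries. The interval of its ratio, 0.183 to 1.25, spans equality, so a difference in Tph1 was not detectable at this depth. Hnmt, which inactivates histamine by adding a methyl group (ENSMUSG00000026986; chromosome 2, 24002910 to 24049394), had 3 counts with EVI1-WT and 4 with EVI1+18. Its ratio of 1.24 had an interval of 0.211 to 8.50. A count of 0 would allow up to 3 counts, or 0.150 and 0.140 scaled CPM in the 2 libraries, so Hnmt stood close to that floor in both.

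Srgn, for serglycin, encodes the core protein whose serine and glycine run is printed above (ENSMUSG00000020077; chromosome 10, 62493833 to 62527451, minus strand). It had the highest level of the members, with 52268 counts with EVI1-WT and 18603 with EVI1+18. The scaled CPM was 2610 with EVI1-WT and 867 with EVI1+18, a level 3.01-fold lower with EVI1+18 (2.96 to 3.06). By reads per exon length, Srgn was gene number 35 with EVI1-WT and number 141 with EVI1+18. Serglycin is made by many blood cells, among them neutrophils, macrophages and megakaryocytes, as well as mast cells.

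Ndst1 and Ndst2 encode the N-deacetylase/N-sulfotransferases that start the sulfation of heparan sulfate and heparin, and Ndst2 is the form that mast cells need for heparin. Ndst1 (ENSMUSG00000054008; chromosome 18) had 3757 counts with EVI1-WT and 1796 with EVI1+18, or 188 and 83.7 scaled CPM. It was 2.24-fold lower with EVI1+18 (2.12 to 2.37). Ndst2 (ENSMUSG00000039308; chromosome 14, 20723730 to 20734562) had 2920 and 1476 counts, or 146 and 68.8 scaled CPM. It was 2.12-fold lower, and its interval of 1.99 to 2.26 reached just short of the rule, whereas the interval of Ndst1 lay just inside it. The quotient of Ndst1 to Ndst2 counts was 1.29 with EVI1-WT and 1.22 with EVI1+18. The change in that quotient, 0.946 with an interval of 0.869 to 1.03, included equality, so these libraries do not separate the ratios of the 2 enzymes. The Rps14 gene lies inside the Ndst1 locus on the opposite strand, with 21811 and 25481 counts, but shares 0 exon bases with it. Words of 50 bases that also occur in other genes made up 0% of the Ndst1, Ndst2, Srgn and Hnmt transcripts, 1.14% of those of Slc18a2 and 0.141% of those of Hdc.

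Levels were compared between genes as RPKM, the scaled CPM divided by the kilobases in the union of all annotated exons. In EVI1-WT the order was Srgn at 1188, Hdc at 184, Slc18a2 at 75.5, Ndst2 at 32.1, Ndst1 at 22.7, Tph1 at 0.121 and Hnmt at 0.0847 RPKM. In EVI1+18 it was Srgn at 395, Slc18a2 at 75.3, Ndst2 at 15.1, Hdc at 11.1, Ndst1 at 10.1, Hnmt at 0.105 and Tph1 at 0.0604 RPKM. Hdc was thus number 2 of the members with EVI1-WT and number 4 with EVI1+18. Its level with EVI1+18 was 1.10 times that of Ndst1, with a counting interval of 1.03 to 1.18 that leaves out the choice of gene length. With the length of the longest principal transcript, an alternative added after the data were seen, Hdc with EVI1+18 was number 3 at 29.8 RPKM, above Ndst2 at 17.6 and Ndst1 at 12.9 RPKM. Neighbours in the order differed beyond counting error in each library except Tph1 and Hnmt.

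**Figure D2:**
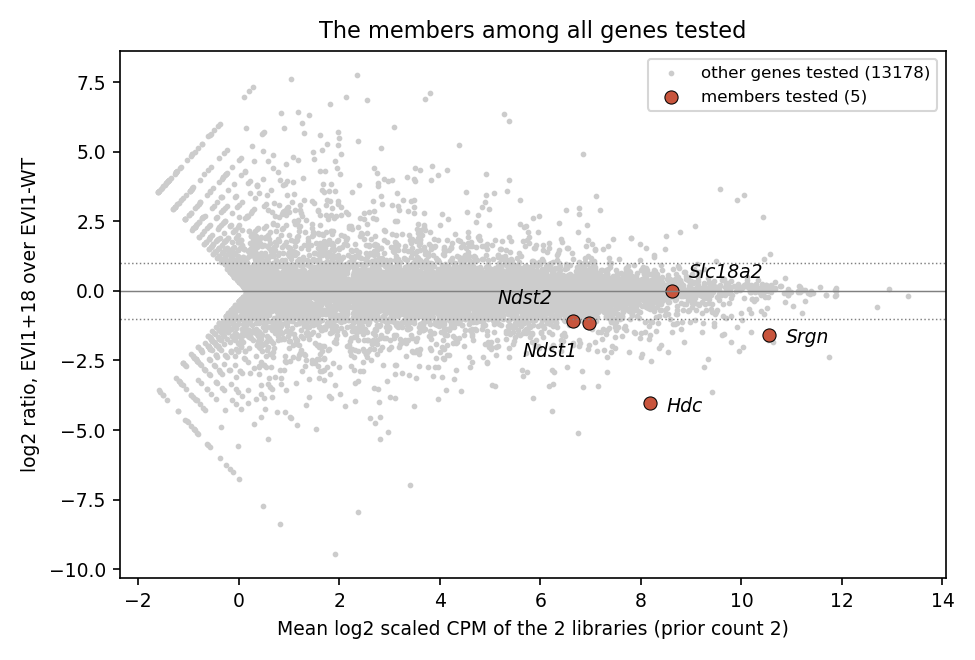
Log2 ratio of EVI1+18 over EVI1-WT (vertical) against mean log2 scaled CPM (horizontal) for the 5 tested members (red) and the other genes tested (grey), with dotted lines at 2-fold. Hdc lies at -4.05 and Srgn at -1.59 among the abundant genes, the Ndst genes lie just below the lower dotted line, and Slc18a2 lies on 0.

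Most genes tested among those that make, store, take up and break down the amines were not called. The same held for 11845 of all 13183 genes tested. Of 25 genes in this list, 12 were tested, 2 were called lower (Hdc and Maob) and 0 higher, at a median log2 ratio of -0.35. Without the members the list held 10 tested genes, of which 1 was called lower. Maob, a monoamine oxidase, had 24 counts with EVI1-WT and 0 with EVI1+18. With 3 counts put in place of the 0 it was 8.57-fold lower. The upper bound of its counting interval was a ratio of 0.155, or 6.45-fold lower. At 1.20 scaled CPM it passed the filter through the EVI1-WT library alone, and a filter at 5 scaled CPM left Hdc as the 1 gene of the list called lower. The related oxidase Maoa, at 21.7 scaled CPM with EVI1-WT and 13.9 with EVI1+18, was 1.56-fold lower (1.35 to 1.82). Of the other genes of serotonin synthesis, Tph2 had 0 counts in both libraries, and Ddc, a decarboxylase of several aromatic amino acids, had 17 and 9.

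Of the uptake transporter genes, 2 were tested. The serotonin transporter Slc6a4, which takes up serotonin from outside the cell, was at 43.5 scaled CPM with EVI1-WT and 23.3 with EVI1+18, a level 1.86-fold lower with EVI1+18 (1.67 to 2.08). Slc22a3, a polyspecific transporter that carries histamine, was at 94.9 and 56.4 scaled CPM and 1.68-fold lower (1.56 to 1.81). Both intervals lay below equality without lying wholly beyond 2-fold. Of the other uptake transporter genes, Slc22a2 had 0 counts in both libraries and Slc29a4 had 3 and 0. The second vesicular transporter gene, Slc18a1, had 29 and 54 counts.

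The enzymes that make the tetrahydrobiopterin cofactor of tryptophan hydroxylase differed in direction. Pts, the second enzyme of that route, was at 29.9 scaled CPM with EVI1-WT and 63.1 with EVI1+18, a ratio of 2.11 (1.91 to 2.33) that just missed the rule. Gch1, the first, had a ratio of 0.672 (0.570 to 0.790). Spr at 0.911 (0.792 to 1.05) and the recycling enzyme Qdpr at 1.06 (0.967 to 1.15) had intervals that included equality. The aldehyde dehydrogenase Aldh2, which oxidises the aldehydes left by amine oxidation among many others, was at 553 and 755 scaled CPM, 1.37-fold higher with EVI1+18 (1.33 to 1.40).

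Few receptor genes for the same amines could be tested. Among all genes tested, 5.10% were called lower. Of 17, 10 had 0 counts in both libraries, 4 were tested and 3 of these (Hrh2, Hrh4 and Htr1b) were called lower. The median log2 ratio over the 4 was -2.73, and it was -2.16 with a filter at 5 scaled CPM and -0.46 with no filter. The histamine H2 receptor Hrh2 had 461 counts with EVI1-WT and 109 with EVI1+18, which is 4.53-fold lower (3.67 to 5.64). The H4 receptor Hrh4, found on mast cells and eosinophils, had 64 and 4 counts, or 17.1-fold lower (6.38 to 64.8). At 3.20 and 0.186 scaled CPM it passed the filter through the EVI1-WT library alone. The serotonin receptor Htr1b had 311 and 32 counts, or 10.4-fold lower (7.22 to 15.5). Htr2a, with 315 and 260 counts, had a ratio of 0.770 (0.651 to 0.911). The H1 and H3 receptor genes, Hrh1 and Hrh3, had 0 counts in both libraries.

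**Figure D3:**
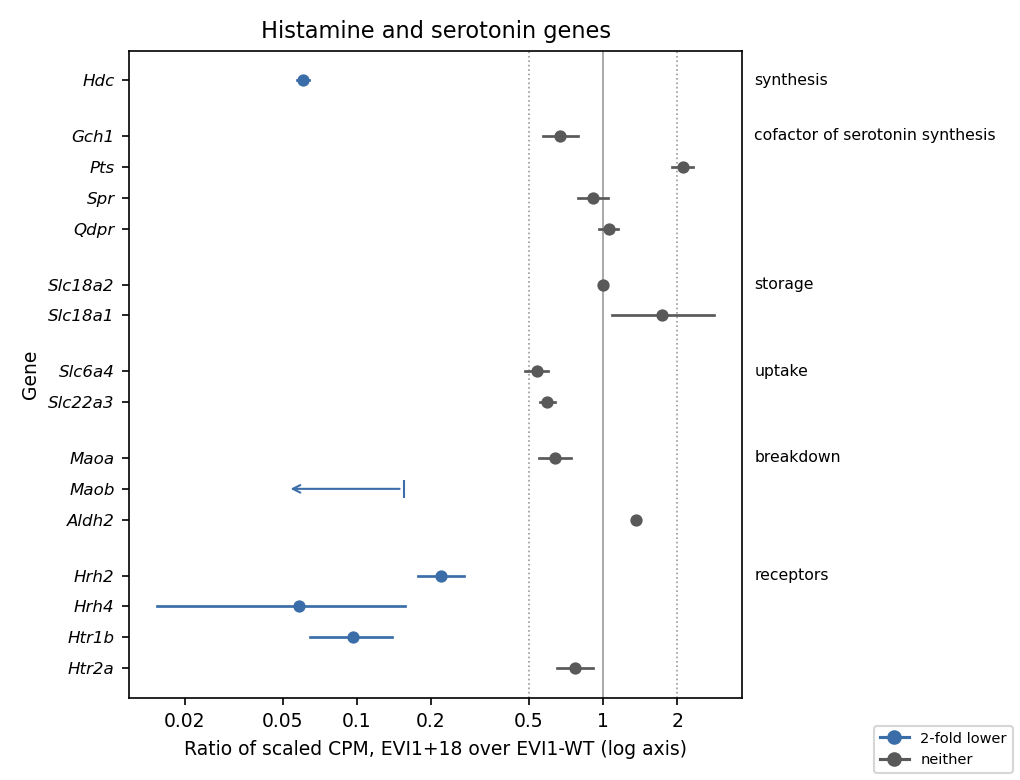
Ratio of scaled CPM, EVI1+18 over EVI1-WT, on a log axis for the tested genes of histamine and serotonin, ordered by role, with 95% counting intervals as bars and dotted lines at 2-fold. Blue marks genes whose whole interval is below 1/2, and the arrow at Maob starts at the upper bound because its count with EVI1+18 was 0. Hdc at 0.0604 and the receptors Hrh4 and Htr1b lie far left, while Slc18a2 lies at 0.998.

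Most genes of the heparin and heparan sulfate chain were not called in either direction, as was so for 11845 of all 13183 genes tested. Of 39 genes, 28 were tested, 3 were called lower (Ndst1, Xylt1 and Papss2) and 0 higher. The interval lay below equality for 16 of the 28, lay above it for 6 and included it for 6. The median log2 ratio was -0.29, and -0.25 for the 26 genes that are not members. Xylt1, which adds the first xylose to the core protein, was at 75.4 scaled CPM with EVI1-WT and 31.4 with EVI1+18, 2.40-fold lower (2.19 to 2.63). Its relative Xylt2 had a ratio of 1.03 (0.852 to 1.25). Papss2, which makes the sulfate donor, was 2.25-fold lower (2.05 to 2.47), a call that was lost when library totals were used for scaling, and Papss1 had a ratio of 0.661 (0.596 to 0.733).

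Genes of chain growth and of the later modifications differed in direction. Ext2, a subunit of the heparan polymerase, had a ratio of 0.818 (0.758 to 0.882), while its partner Ext1, with 75 and 181 counts, had a ratio of 2.25 (1.71 to 2.99). The 2-O-sulfotransferase Hs2st1 stood at 0.856 (0.774 to 0.946) and the 6-O-sulfotransferase Hs6st1 at 0.940 (0.837 to 1.05). Glce, the epimerase that acts after the Ndst enzymes, stood at 1.67 (1.36 to 2.07). The isoform genes Ndst3 and Ndst4 had 0 counts in both libraries, so Ndst1 and Ndst2 were the detected members of that family.

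Some chondroitin sulfate genes differed by as much as the Ndst genes. Of 16 genes, 10 were tested, 2 were called lower and 1 higher, at a median log2 ratio of -0.56. The shares over all genes tested were 5.10% lower and 5.05% higher. The 4-O-sulfotransferase Chst11 was at 132 scaled CPM with EVI1-WT and 61.8 with EVI1+18, 2.14-fold lower (2.004 to 2.29). Under DESeq2 size factors, upper-quartile scaling and library totals its upper bound passed 1/2 and the call was lost. Chst14, which sulfates dermatan, was 3.03-fold lower (2.59 to 3.56), and the dermatan epimerase Dse was 2.67-fold higher (2.06 to 3.50), with 79 and 226 counts. The gene of the list with the most reads, the chain-starting enzyme Csgalnact2, was at 195 and 189 scaled CPM, a ratio of 0.968 (0.927 to 1.01).

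**Figure D4:**
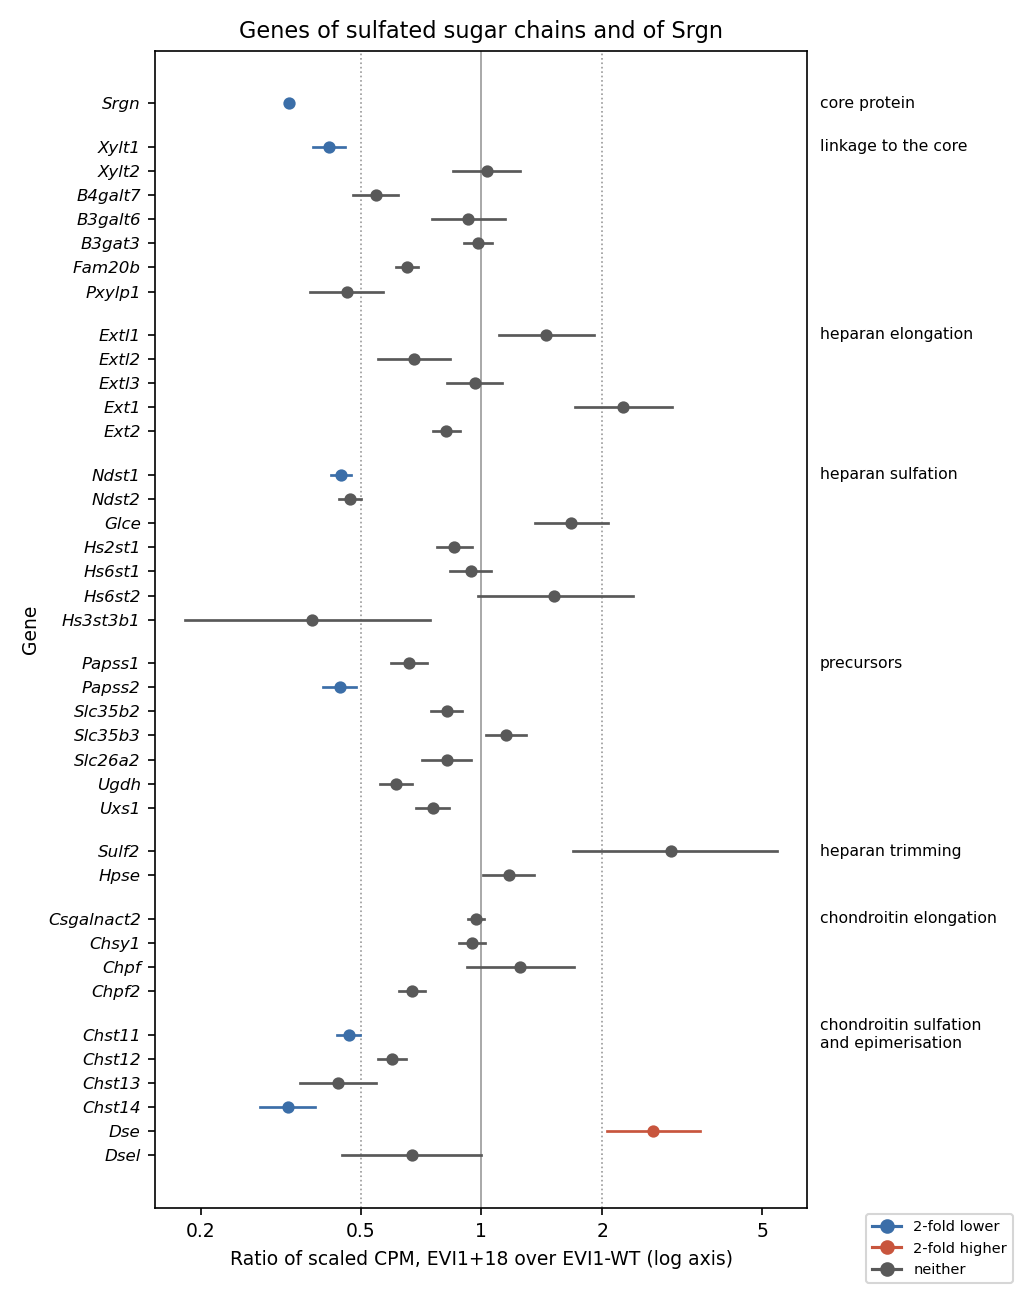
Ratio of scaled CPM, EVI1+18 over EVI1-WT, on a log axis for Srgn and the tested genes that build heparan and chondroitin sulfate chains, ordered by step, with 95% counting intervals and dotted lines at 2-fold. Blue genes are called lower and red genes higher. Srgn, at 0.332, lies left of most chain enzymes, and Dse at 2.67 is the one gene in red.

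Core protein genes differed in direction, and Srgn was among the lower ones. Of 28 genes for proteins that can carry such chains, 14 were tested, 3 were called higher and 2 lower, at a median log2 ratio of 0.81. The shares over all genes tested were 5.05% higher and 5.10% lower. The second gene called lower was Prg2, the eosinophil major basic protein, at 365 and 78.9 scaled CPM. The genes called higher were low with EVI1-WT. The syndecan Sdc3 had 40 counts with EVI1-WT and 212 with EVI1+18, and neuropilin Nrp1 had 132 and 470. Perlecan, Hspg2, had 1 and 25 counts, a ratio of 23.3 with an interval of 3.82 to 958. It was 1 of 4 genes of the list, with Sdc1, Gpc1 and Gpc4, that passed the filter through the EVI1+18 library alone, and a filter at 5 scaled CPM left 2 genes called higher. Summed over the list, core protein genes came to 3250 scaled CPM with EVI1-WT and 1397 with EVI1+18, of which Srgn was 2610 and 867.

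Most granule membrane, acidification and release genes were not called, and they differed in direction. Of all 13183 genes tested, 11845 were not called either. Of 36 genes, 35 were matched to the table and 34 tested, with 1 called higher, 1 lower and a median log2 ratio of 0.04. The interval lay below equality for 14 of the 34, lay above it for 13 and included it for 7. The gene with the most reads, the granule membrane tetraspanin Cd63, was at 1010 scaled CPM with EVI1-WT and 742 with EVI1+18, a ratio of 0.735 (0.720 to 0.750). The syntaxin Stx11 was 2.94-fold lower (2.66 to 3.26), and the proton pump subunit Atp6v0d2 was 3.03-fold higher (2.77 to 3.33). Among genes that were not called, the syntaxin Stx3 was 2.05-fold lower (1.86 to 2.25), and the SNARE gene Snap23 was 1.77-fold higher (1.70 to 1.85).

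Markers of several blood cell types differed between the libraries beside the storage genes. The shares to set beside each marker count below are those over all genes tested, 5.10% called lower and 5.05% higher. In bulk RNA, fewer cells of a type and less RNA per cell cannot be told apart, and neither can a mixture of cell types and cells that carry markers of several types. Of 12 mast cell markers, 8 were tested, 5 were called lower and 1 (Kit) higher, at a median log2 ratio of -1.61. Their summed level was 3224 scaled CPM with EVI1-WT and 357 with EVI1+18. Cpa3, Fcer1a and Il1rl1, the 3 with the highest mean level, were at 2409, 381 and 239 scaled CPM with EVI1-WT and at 196, 34.4 and 22.0 with EVI1+18. The stem cell factor receptor Kit had 63 counts with EVI1-WT and 254 with EVI1+18. The connective tissue mast cell genes Tpsab1, Mrgprb1 and Mrgprb2 had 0 counts in both libraries, and Mcpt4 had 3 and 7. Of the other genes that mark connective tissue mast cells, the type that makes heparin, the chymase Cma1 had 1375 and 592 counts and the tryptase Tpsb2 had 244 and 68.

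Of 10 basophil markers, all were tested, 6 were called lower and 1 (Prss34) higher, at a median log2 ratio of -1.35. Their summed level was 2108 scaled CPM with EVI1-WT and 617 with EVI1+18. The basophil protease Mcpt8 was at 464 and 43.5 scaled CPM, and the transcription factor Gata2 at 769 and 376. The 5 mucosal mast cell markers had 4 tested, 1 lower (Itgae) and 1 higher (Mcpt1, with 1 and 84 counts). Their median log2 ratio was 0.29, or -0.67 with a filter at 5 scaled CPM, and their summed levels were 310 and 190 scaled CPM. Mcpt1 passed the filter through the EVI1+18 library alone. The genes with the most reads were Itgb7, Itgae and Mcpt2, and Mcpt9 had 0 counts in both libraries.

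Hdc had a lower ratio than Cpa3, Fcer1a and Il1rl1, the mast cell markers with the highest mean level, than Mcpt8 and Gata2, which with Fcer1a led the basophil list, and than Itgb7, which led the mucosal list. The part of mast cells, basophils or any other cell type in the Hdc ratio was not tested. Relative to Cpa3 counts, Hdc counts were 1.34-fold lower with EVI1+18 than with EVI1-WT (1.27 to 1.43). Relative to Fcer1a they were 1.50-fold lower (1.36 to 1.64) and relative to Mcpt8 1.55-fold lower (1.43 to 1.69). Relative to Gata2 they were 8.10-fold lower (7.64 to 8.58) and relative to Itgb7 10.4-fold lower (9.71 to 11.1). Against the eosinophil markers Epx, Prg2 and Prg3, Hdc counts were 2.21-fold, 3.58-fold and 3.87-fold lower. Against the neutrophil markers S100a9, S100a8 and Ngp they were 5.68-fold, 5.87-fold and 3.81-fold lower. Slc18a2 counts were higher with EVI1+18 relative to the same genes, by unequal amounts. Relative to Cpa3 they were 12.3-fold higher (11.7 to 12.8) and relative to Mcpt8 10.6-fold higher (9.87 to 11.4), but relative to Gata2 2.04-fold higher (1.96 to 2.12) and relative to Itgb7 1.59-fold higher (1.51 to 1.67).

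Markers of other cells that use the members also differed. Of 12 megakaryocyte and platelet markers, 9 were tested, 7 were called higher and 0 lower, at a median log2 ratio of 3.998 and summed levels of 574 scaled CPM with EVI1-WT and 1480 with EVI1+18. Itga2b was at 447 and 718 scaled CPM, Pf4 at 4.94 and 347, and Vwf at 99.8 and 121. The part of these cells in the Slc18a2 level was not tested. Relative to Itga2b, Slc18a2 counts were 1.61-fold lower with EVI1+18 (1.55 to 1.68). They were 1.21-fold lower relative to Vwf (1.13 to 1.29) and 70.4-fold lower relative to Pf4 (57.6 to 86.0).

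Of 10 neutrophil markers, 9 were tested, 6 were called lower and 0 higher, at a median log2 ratio of -1.52 and summed levels of 2894 and 969 scaled CPM. The neutrophil proteins S100a9 and S100a8 were at 1370 and 995 scaled CPM with EVI1-WT and 471 and 353 with EVI1+18, and Ngp at 323 and 74.2. Relative to S100a9, Srgn counts were 1.03-fold lower with EVI1+18 (1.005 to 1.06), and relative to Ngp they were 1.44-fold higher (1.36 to 1.53). The neutrophil markers did not share 1 ratio. Ly6g had a ratio of 0.0594, Cxcr2 of 0.165, Mmp8 of 0.799 and Mmp9 of 2.87, beside 0.332 for Srgn. Mmp9, which was not called, passed the filter through the EVI1+18 library alone. Among the mast cell and basophil markers, Srgn counts were 4.09-fold higher relative to Cpa3 (3.94 to 4.24), but 1.47-fold lower relative to Gata2 (1.43 to 1.52) and 1.89-fold lower relative to Itgb7 (1.81 to 1.97). Relative to the macrophage markers Lyz2, Gpnmb and Cd68, Srgn counts were 7.46-fold, 15.1-fold and 2.41-fold lower with EVI1+18. Relative to the megakaryocyte markers Itga2b, Vwf and Pf4 they were 4.84-fold, 3.63-fold and 211-fold lower. The part of any of these cell types in the Srgn ratio was not tested.

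Of 7 eosinophil markers, 4 were tested, 3 were called lower and 1 (Siglecf) higher, at a median log2 ratio of -2.15 and summed levels of 849 and 171 scaled CPM. Epx, Prg2 and Prg3 led this list, at 442, 365 and 34.9 scaled CPM with EVI1-WT. Of 12 macrophage markers, 9 were tested, 6 were called higher and 1 (Adgre1) lower, at a median log2 ratio of 1.54 and summed levels of 1780 and 4129 scaled CPM, led by Lyz2, Gpnmb and Cd68. All 12 red-cell markers were tested, 10 were called higher and 0 lower, at a median log2 ratio of 3.05 and summed levels of 1578 and 11007 scaled CPM, led by the globin genes Hbb-bt, Hba-a1 and Hbb-bs.

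**Figure D5:**
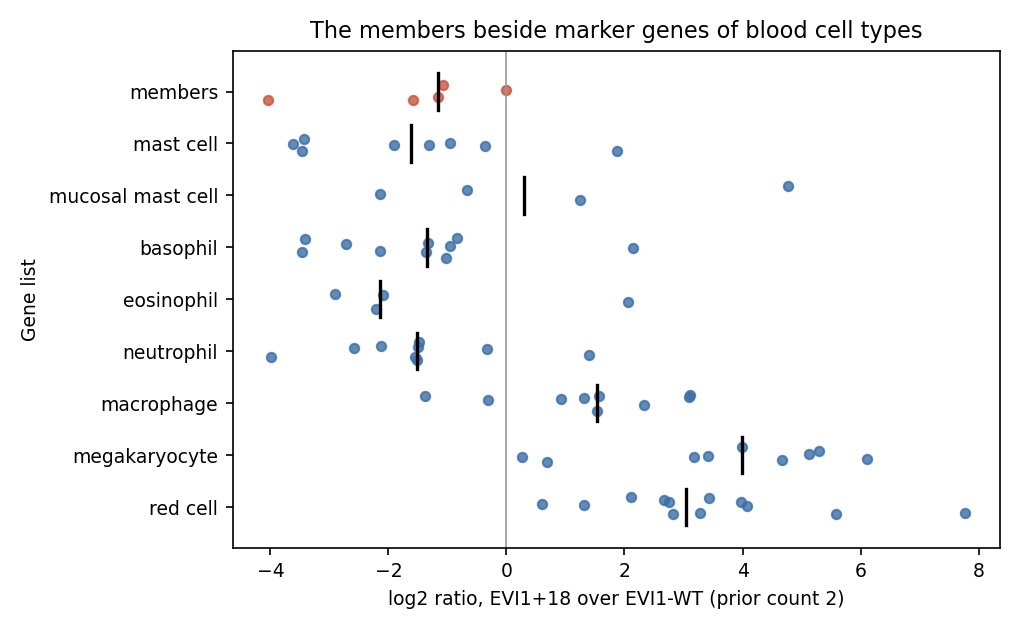
Log2 ratio of EVI1+18 over EVI1-WT for each tested gene of the member set (red) and of 8 marker lists (blue), with a black bar at each median. The members run from -4.05 to 0. The mast cell, basophil, eosinophil and neutrophil medians lie between -2.15 and -1.35, and the mucosal mast cell median lies at 0.29. The macrophage, megakaryocyte and red-cell medians lie at 1.54 or more.

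Genes whose levels lay nearest to those of the called members in both libraries were found by the distance between log2 scaled CPM values over the 2 libraries. The search took genes of at least 10 scaled CPM in a library and left out predicted symbols and identifiers without a symbol. None of the genes searched lay close to Hdc. The nearest, the single-stranded DNA binding protein gene Nabp1, was at a distance of 1.08 and was 5.77-fold lower with EVI1+18. Next came the laminin gene Lama5 (1.22) and the lysosomal galactosidase Glb1 (1.28). Srgn had 2 close neighbours, the cytokine receptor chain Csf2rb at 0.139 and thrombospondin Thbs1 at 0.212, followed by the chemokine Ccl6 at 0.534. The genes nearest to Ndst1 were the chemokine receptor Ccr1 (0.0461), the inhibitory receptor Pirb (0.0804) and Vwa5a (0.108).

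By role, the 4 amine genes (Hdc, Tph1, Slc18a2 and Hnmt) summed to 1573 scaled CPM with EVI1-WT and 465 with EVI1+18, which is 3.38-fold lower (3.31 to 3.46). Hdc made up 1178 of that sum with EVI1-WT and 71.2 with EVI1+18, and Slc18a2 was the greater part with EVI1+18. The 2 chain enzymes summed to 333 and 152 scaled CPM, 2.19-fold lower (2.10 to 2.28). The core protein gene alone was 3.01-fold lower, as given above.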

How the data were processed

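RNA from 2 cultures was sequenced, 1 for each vector, and libraries were assigned to groups by the vector in their labels. The values are counts of reads per Ensembl gene, which the authors deposited without normalization. The submitters' processing notes name HISAT2 2.2.1, SAMtools, featureCounts, Subread, edgeR and GRCm38. For the strand setting, the annotation release and the handling of reads with several positions, the settings were not given in the sources used here.

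Of 55487 identifiers, 55141 matched GENCODE release M21 (GRCm38), which gave symbols, coordinates and exon lengths. Libraries were scaled by TMM in edgeR 4.0.16. With 1 library per group edgeR's quasi-likelihood test has no residual degrees of freedom, and no test was run. Ratios have exact (Clopper-Pearson) 95% counting intervals from scipy 1.17.1. Genes that reached 1 scaled CPM in either library counted as tested, and a gene was called when its whole interval lay beyond 2-fold. Intervals of quotients between genes use the normal approximation of the log quotient. Log2 ratios use a prior count of 2.

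The members and the 14 gene lists were chosen with earlier results of these data known. Named genes are all members, the tested genes of the amine list, the called and the most abundant genes of the chain, core protein and granule lists, the called receptors, the 3 most abundant markers per list with any called against the majority, and the 3 genes of at least 10 scaled CPM nearest to each called member. The search for nearest genes left out predicted symbols (Gm and digits, or ending in Rik) and identifiers without a symbol. Other genes, such as members of these lists that missed the rule or were at 0, were named after their values were seen. The alternatives were DESeq2 1.42.0 size factors, upper-quartile scaling, library totals, other filters and priors, and a rule on the ratio itself. Promoter sequences are RefSeq's (GRCm38.p6).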

Additional observations from a re-analysis of the deposited data

How the results depend on the processing

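With 1 library per vector, no replicate can be left out. No paired analysis was possible because each group has 1 library. Hdc, Srgn and Ndst1 stayed called lower, and Slc18a2 and Ndst2 uncalled, under DESeq2 size factors, upper-quartile scaling and library totals. With library totals the Slc18a2 ratio was 1.04 (1.01 to 1.08). When the ratio itself, not its interval, had to pass 2-fold, 1037 genes were called higher and 1105 lower, against 666 and 672, and Ndst2 joined the members called lower, making 4. That rule also called 1 amine gene higher (Pts), 2 heparin chain genes higher and 6 lower, 6 core protein genes higher and 2 granule genes lower. A filter at 5 scaled CPM left 431 genes called higher and 1 amine gene lower, because fewer genes were tested, and turned the mucosal mast cell median to -0.67. With no filter, 2 granule genes were called lower. Library totals called 1 amine gene higher (Pts). Under each of the 3 other scalings 1 chondroitin gene, Chst14, was called lower in place of 2. Depth limits Tph1 and Hnmt, whose few reads allow no comparison.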
